A study of Mus musculus with 12 samples.

Results

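The response of isolated cardiomyocytes to PB1046 was described over both genotypes of the study at once. The 6 PB1046 libraries were set against the 6 saline libraries, with the genotype as a block, so that each gene has a single difference averaged over the genotypes. The comparison takes in all 12 of the 12 libraries, in 4 groups of 3, one saline and one PB1046 group for each of the genotypes mdx and mdx:Utrn+/-. Of the 18530 genes in the table, the 12798 with at least 1 TPM (a level corrected for gene length and library total) in at least 3 libraries were tested.

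All 12 libraries came from mice that carry the mdx mutation and so lack dystrophin, the protein that ties the actin cytoskeleton to the membrane. The mdx:Utrn+/- mice carry, in addition, 1 disrupted copy of Utrn, which encodes utrophin, a relative of dystrophin that can partly take its place. PB1046 is a long-acting form of vasoactive intestinal peptide (VIP), a neuropeptide that widens vessels and strengthens the heartbeat. Mice were dosed every other day between weeks 4 and 12 with saline or with PB1046 at 0.75 or 1.5 mg/kg, and the PB1046 libraries carry the label of the high dose. Hearts were taken at week 14, after dosing had ended, and the labels give neither the hour of collection nor the sex of the mice. Wild-type hearts were not analysed here. The labels do not say that each library is a mouse of its own, so the p-values measure the spread between these libraries.

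VIP acts through the receptors encoded by Vipr1 and Vipr2, which couple to the stimulatory G protein, raise cyclic AMP (cAMP) and activate protein kinase A (PKA). PKA phosphorylates calcium and contractile proteins of the cardiomyocyte and, in the nucleus, the transcription factor CREB, which switches on fast-responding genes such as Fos and Nr4a1. NF-kB is held in the cytoplasm by inhibitor proteins, is released by inflammatory signals and induces cytokines, adhesion molecules and its own inhibitors. Both pathways are named in the title or the design text of the series.

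Levels are given as scaled TPM, the deposited TPM divided by a factor that aligns the bulk of genes between libraries. Differences are PB1046 minus saline on the log2(scaled TPM + 1) scale, which understates the change of scarce genes. Libraries held 7234100 to 25458194 reads, with 18162940 to 25458194 in mdx saline and 11468009 to 14182350 in mdx PB1046, and the part of depth in the responses was not tested. Utrn was at 9.17, 8.71 and 11.1 in mdx saline and at 3.89, 7.16 and 5.92 in mdx:Utrn+/- saline, with every library of the second group below the first. Genes of the sarcomere, which mark cardiomyocytes, summed to 145031 to 156941 scaled TPM in mdx saline, 93350.5 to 164813 in mdx PB1046, 177639 to 182406 in mdx:Utrn+/- saline and 124684 to 186816 in mdx:Utrn+/- PB1046. In each genotype the lowest sums were in PB1046 libraries (replicates 2 and 3 of mdx, replicate 2 of mdx:Utrn+/-), and the same 3 held the least respiratory chain RNA. Replicate 3 of mdx:Utrn+/- PB1046, at 163908, was also below every saline library of its genotype for the sarcomere. Its respiratory chain sum was within the saline range. Macrophage, endothelial, fibroblast and red cell transcripts were present in every library, and the sum of each of these marker lists varied more than 2-fold between libraries of mdx PB1046 alone. In bulk RNA, fewer cells of a type and less RNA per cell cannot be told apart.

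No gene passed the test for an effect of PB1046 over both genotypes. With limma (moderated linear models across all genes) 0 of 12798 genes had a Benjamini-Hochberg adjusted p under 0.05, and the smallest adjusted p was 0.9998, with a smallest unadjusted p of 0.000869. No gene passed within mdx or within mdx:Utrn+/- either, where 407 (3.18%) and 246 (1.92%) had an unadjusted p under 0.05. At an unadjusted p under 0.05 there were 339 genes (2.65% of those tested), 175 higher under PB1046 (1.37%) and 164 lower (1.28%), where evenly spread p-values would give 640. Counts from limma-voom on reads recovered from the TPM were 0 after adjustment and 388 before. The median standard error of a difference was 0.181, and its 95% interval reached a median of 0.392 to either side. The unadjusted count followed single libraries: it was 1006 without mdx PB1046 replicate 1, 154 without mdx PB1046 replicate 2, 211 without mdx:Utrn+/- PB1046 replicate 2 and 223 without mdx saline replicate 2, with 0 genes past the adjusted threshold each time. Without the scaling between libraries the unadjusted split was 631 higher and 30 lower, with the median of all genes at 0.142, in place of 175 and 164.

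The genotypes share no libraries, so their responses can be set side by side. Across the 12798 genes the response in mdx and the response in mdx:Utrn+/- had the same sign for 50.9%, with a Pearson r of -0.0387 and a Spearman rho of -0.0108. These are descriptions across genes, which are not independent replicates. Responses in a single genotype spread more widely than the pooled one: their standard deviation over genes was 0.319 in mdx and 0.295 in mdx:Utrn+/-, against 0.213 for the pooled difference. A difference of more than 0.5 in size was seen for 9.24% of genes in mdx, 7.87% in mdx:Utrn+/- and 2.59% in the pooled comparison. The pooled difference is the mean of the responses in the genotypes. Averaging uncorrelated values narrows their spread by itself, so the smaller pooled spread and share are not a result about PB1046. By mean, 3253 genes (25.4%) were higher in both genotypes, 3266 (25.5%) lower in both and 6276 (49%) opposite. The 3 PB1046 libraries did not overlap the 3 saline libraries of either genotype in 14 genes on the higher side (0.109%), 17 on the lower side (0.133%) and 29 in opposite directions (0.227%). The test of whether the response differs between genotypes called 0 genes, with 316 at an unadjusted p under 0.05 (2.47%).

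**Figure D1:**
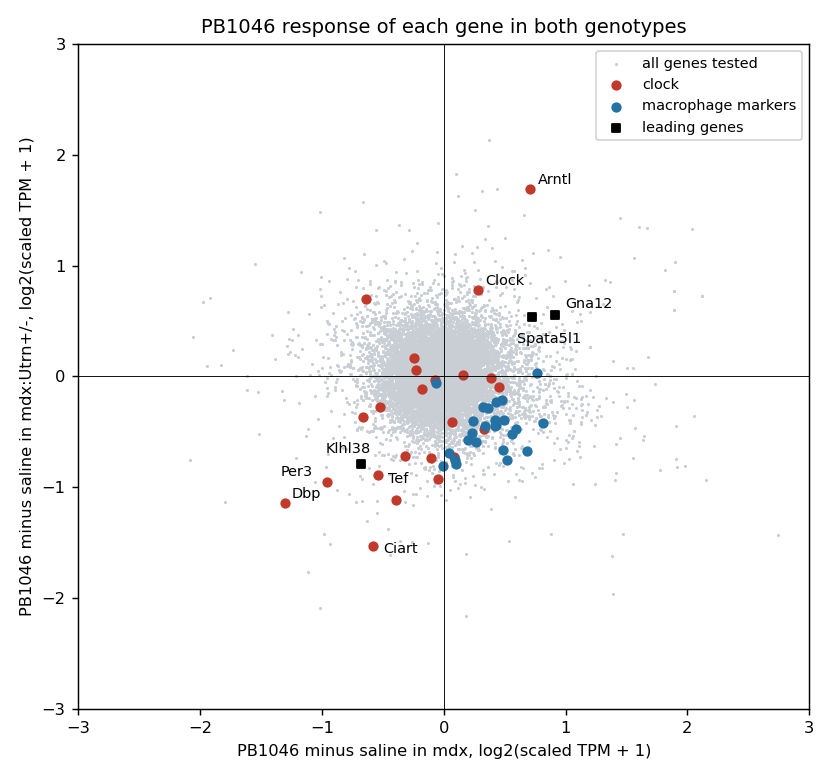
Each point is a gene, with its PB1046 response in mdx on the x axis and in mdx:Utrn+/- on the y axis, both on the log2(scaled TPM + 1) scale. The cloud of 12798 genes is round, with a Pearson r of -0.0387; several clock genes lie in the lower left, and 22 of 25 macrophage markers have opposite signs in the genotypes.

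In 16 genes (0.125% of those tested) the 6 PB1046 libraries did not overlap the 6 saline libraries, 7 above (0.0547%) and 9 below (0.0703%). The gene with the smallest unadjusted p was Spata5l1, which encodes an AAA-type ATPase (chr2:122630625-122632704, mm10). It was at 0.514, 0.955 and 0.495 scaled TPM in mdx saline, 1.4, 2.31 and 1.5 in mdx PB1046, 1, 0.43 and 0.703 in mdx:Utrn+/- saline and 1.32, 1.49 and 1.56 in mdx:Utrn+/- PB1046. Every PB1046 library was above every saline library, though on 2 to 26 reads per library, and the gene passed the filter on low values through its PB1046 libraries. The pooled difference was 0.63 ± 0.15 (SE; 95% interval 0.31 to 0.94), with 0.72 in mdx and 0.53 in mdx:Utrn+/-. The unadjusted p was under 0.05 in each of the 24 alternative settings that tested it. Here and for the genes below, such settings refit the same 12 libraries for genes picked by their p. Their counts are therefore not independent support.

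Snn, which encodes the small membrane protein stannin, spanned 13 to 16.3 scaled TPM in saline and 16.4 to 24 in PB1046 libraries, a difference of 0.37 ± 0.12. Aldh1l1, an enzyme of folate metabolism, spanned 1.71 to 2.13 and 2.13 to 3.4. Fam149a, whose function is not well described, spanned 0.6 to 1.38 and 1.4 to 2.07. The ranges of these genes come close to touching, and their differences were 0.36 for Aldh1l1 and 0.41 for Fam149a. Parg, which removes poly(ADP-ribose) chains from proteins, Dnal1, a light chain of axonemal dynein, and Gpatch2l complete the 7 genes above, with differences of 0.28, 0.28 and 0.24.

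Below saline in all 6 libraries was Rnaseh2c, a subunit of the enzyme that removes ribonucleotides from DNA. Saline libraries held 37.3, 39 and 46.9 scaled TPM (lowest, median and highest) and PB1046 libraries 23, 29.99 and 34.8, a difference of -0.43 ± 0.11. C8g, which encodes the gamma chain of complement component 8, was at 3.52, 4.35 and 7.82 in saline and 1.75, 2.73 and 3.36 in PB1046 libraries, with a difference of -0.67 ± 0.18. Zfp580, a zinc finger protein, was at 5.05, 6.58 and 9.85 and 3.13, 4.49 and 5.03. Tnnt3, the troponin T of fast skeletal muscle, was scarce at 0.657, 1.2 and 3.6 in saline and 0.237, 0.484 and 0.527 in PB1046 libraries, on 2 to 48 reads, and passed the filter through its saline libraries. For each of these genes the highest PB1046 library lay below the lowest saline library. Among the other 5 were 1810044D09Rik (-0.47), Abtb1 (-0.40), Hnrnpl (-0.35), which encodes a splicing regulator, and Bad (-0.25), a promoter of cell death in the Bcl-2 family, with the pooled difference in brackets. Bad was named after its values were seen. Without the scaling 5 genes lay above and 1 below.

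Among the 12 annotated genes per direction with the smallest unadjusted p (RIKEN clones and predicted genes set aside), the size of the difference was between 0.40 and 1.23. Gna12, the alpha subunit of the G protein G12, which signals to the small GTPase RhoA, was at 18.9, 14.7 and 16.2 scaled TPM in mdx saline and 29.5, 48.4 and 22.7 in mdx PB1046. It was at 18.2, 24.5 and 12.5 in mdx:Utrn+/- saline and 30.5, 25.8 and 23.9 in mdx:Utrn+/- PB1046. Its groups were apart in mdx and overlapped by 1 saline library in mdx:Utrn+/-, and the difference was 0.73 ± 0.20. Scgb3a1, a secretoglobin of airway epithelium, was near the limit of detection at 0.111 to 0.863 in saline and 0.648 to 3.13 in PB1046 libraries. Every saline library was under 1 scaled TPM, so Scgb3a1 passed the filter on low values mainly through its PB1046 libraries. Its difference was 0.82 and ran from 0.28 to 1.68 over the alternative settings. Nek7, a kinase that also serves the NLRP3 inflammasome, differed by 0.58 ± 0.18 and Stk24, a kinase of the Ste20 family, by 0.43 ± 0.13. Serpinb9, an inhibitor of granzyme B, differed by 0.41, and Cox6b2, a testis-type subunit of cytochrome oxidase, by 0.81. The others on the higher side were Zbtb12 (0.53), Nepn (0.75), Mpp3 (0.51) and Lmbrd2 (0.51). Over the alternative settings Cox6b2 ran from 0.352 to 1.315, Nepn from 0.287 to 1.283 and Lmbrd2 from 0.160 to 1.231. Zbtb12 ran from 0.274 to 0.667 and Mpp3 from 0.269 to 0.651.

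On the lower side Klhl38, a Kelch-like protein enriched in striated muscle, led with -0.73 ± 0.18. It was at 13.9, 15.5 and 20.2 scaled TPM in mdx saline, 12.7, 9.61 and 7.77 in mdx PB1046, 15.6, 13.6 and 8.52 in mdx:Utrn+/- saline and 5.52, 5.79 and 9.13 in mdx:Utrn+/- PB1046. The mdx groups were apart, and in mdx:Utrn+/- the lowest saline library lay within the PB1046 range. Mt3, a metallothionein, differed by -0.59, Siva1, a pro-apoptotic adaptor, by -0.40, and Cpeb1, which controls translation through the poly(A) tail, by -0.41. Zfp46 (-0.45) and AI413582 (-0.42) followed, beside Rnaseh2c, C8g, Zfp580 and Tnnt3 above and the clock genes Dbp and Per3 below.

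**Figure D2:**
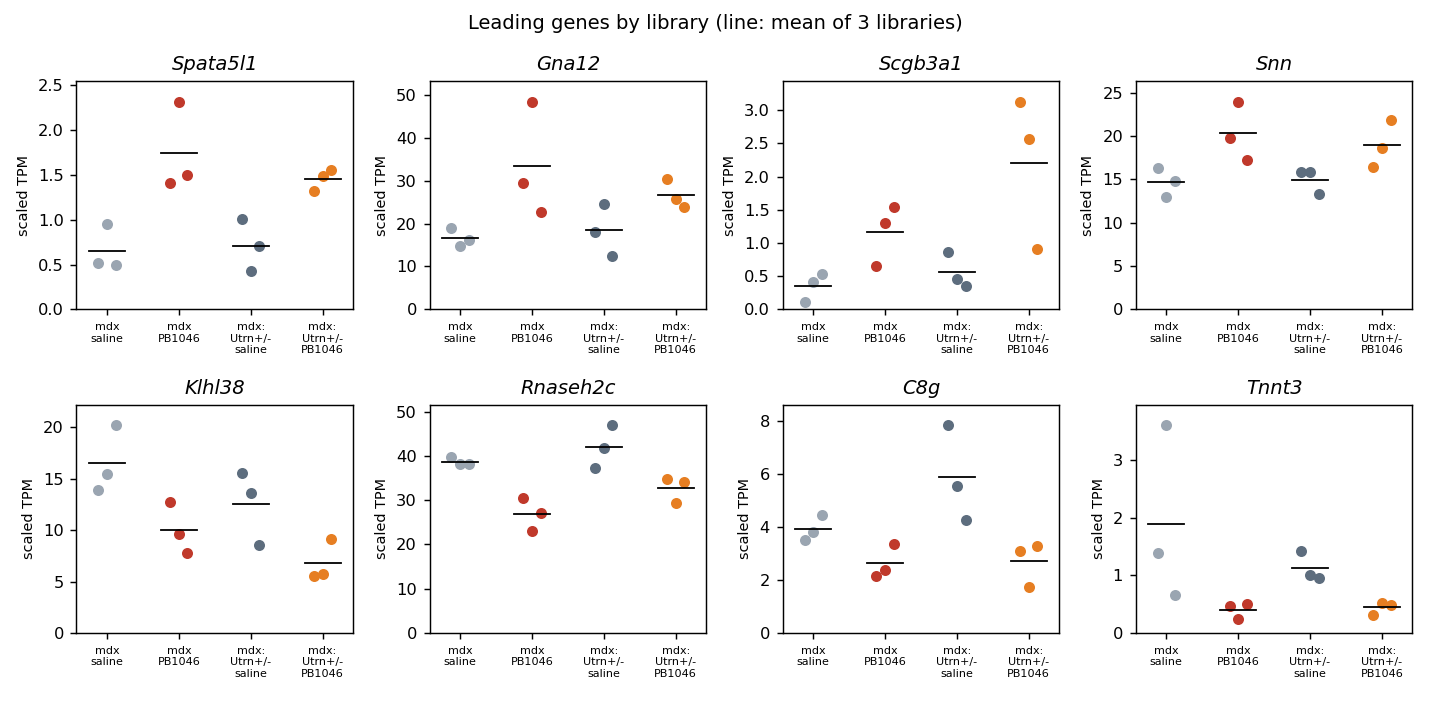
Scaled TPM of 8 of the genes with the smallest unadjusted p or with groups that did not overlap, 1 point per library and a line at the mean of 3. In Spata5l1, Snn, Rnaseh2c, C8g and Tnnt3 the 6 PB1046 points lie on 1 side of the 6 saline points; in Gna12, Scgb3a1 and Klhl38 at least 1 saline library overlaps.

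The genes for the VIP receptors gave few reads. Vipr1 was under the limit for testing, with 3 to 38 reads per library. It was at 0.18, 0.12 and 0.183 scaled TPM in mdx saline, 0.108, 0.569 and 0.732 in mdx PB1046, 0.648, 0.29 and 0.117 in mdx:Utrn+/- saline and 0.107, 0.382 and 0.323 in mdx:Utrn+/- PB1046. Arms overlapped throughout, with a difference of 0.119 (two-sided exact permutation test within genotypes, p = 0.425; the smallest p that 400 relabelings allow is 0.005). Vipr2 had 2 to 15 reads, with 0.148 to 0.373 scaled TPM in saline and 0.0783 to 0.391 in PB1046 libraries, a difference of -0.029 (same exact test, p = 0.64). Vip itself had 0 to 10 reads. The receptor for the related peptide PACAP, Adcyap1r1, was the best expressed of the 3 receptors at 0.972 to 9.06 in saline and 1.85 to 7.83 in PB1046 libraries. Its difference was 1.13 in mdx, where all PB1046 libraries lay above saline, and -0.25 in mdx:Utrn+/- (unadjusted interaction p above 0.05). Ramp1, Ramp2 and Ramp3, accessory proteins of related receptors, differed by 0.12 (-0.56 to 0.80), 0.09 (-0.75 to 0.93) and 0.49 (-0.43 to 1.41), and Calcrl, their partner receptor, by -0.10 (-0.90 to 0.70).

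Of the components of the cAMP-PKA-CREB pathway, 34 of 52 tested genes were higher under PB1046 by their fitted means, with a median difference of 0.08, against 49.6% of all genes and a median of -0.0016. None passed the adjusted test, and 2 (3.85%, against 2.65% of all genes) had an unadjusted p under 0.05. Both are A-kinase anchoring proteins, which hold PKA at defined places in the cell. Akap10, which tethers PKA at mitochondria and membranes, was at 4.09, 5.47 and 6.16 scaled TPM (lowest, median and highest) in saline and 5.93, 6.6 and 7.31 in PB1046 libraries, a difference of 0.27 ± 0.12. Akap12, a scaffold of the cortex, was at 5.81, 7.41 and 13.2 and 6.77, 13.3 and 46.2, a difference of 0.82 ± 0.38. Its highest libraries were mdx PB1046 replicates 2 and 3, at 29.8 and 46.2. The unadjusted p of Akap12 was under 0.05 in 11 of 25 alternative settings and that of Akap10 in 15 of 25.

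Upstream in the pathway, Gnas, the stimulatory G protein alpha subunit, differed by 0.12 (95% interval -0.29 to 0.52) and the main cardiac adenylyl cyclases Adcy5 and Adcy6 by -0.12 and -0.37. Among PKA subunits, the catalytic Prkaca differed by 0.01 (-0.42 to 0.44) and the regulatory Prkar2a by 0.51 (-0.06 to 1.07). Prkar2a spanned 7.11 to 25.1 scaled TPM in saline and 12.8 to 30.7 in PB1046 libraries and did not overlap in mdx. Pde3a, a cardiac phosphodiesterase that degrades cAMP, differed by 0.53 (-0.0029 to 1.06), with 0.92 in mdx and 0.14 in mdx:Utrn+/-. The PKA inhibitors went in opposite directions, Pkia by 0.39 and Pkig by -0.28, and Creb1 itself differed by 0.17 (-0.16 to 0.50). None of these intervals excludes 0.

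Target genes of CREB were split evenly: 14 of 28 were higher, the median was 0.01, and 0 had an unadjusted p under 0.05 in limma or in limma-voom. Fos was at 215, 108 and 163 scaled TPM in mdx saline and 87.3, 73.5 and 65.1 in mdx PB1046, all 3 below, and at 44, 75.6 and 115 and 172, 87.7 and 50.3 in mdx:Utrn+/-, where the arms overlapped. Its differences were -1.05 and 0.33 (unadjusted interaction p under 0.05). Nr4a1 differed by -0.17 (-0.90 to 0.56), Sik1 by 0.09 (-0.43 to 0.61) and Ppargc1a, a regulator of mitochondrial genes, by -0.16 (-0.73 to 0.41). Nr4a2 and Ddit4 had the widest differences, -0.95 and 0.81, with intervals of -2.39 to 0.49 and -0.08 to 1.71. Several of these are immediate early genes, which also respond to the handling of tissue, and the wider list of immediate early and dissociation stress genes had 14 of 24 members lower, with a median of -0.07 (relative to all genes -0.0439 without scaling and -0.0666 with it).

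Components of NF-kB signaling were higher in 29 of 38 tested genes, with a median of 0.08. At an unadjusted p under 0.05 there was 1 gene (2.63%), close to the 2.65% of all genes. That gene was Tnfaip3, which encodes A20, a deubiquitinating brake on NF-kB that NF-kB itself induces (chr10:19000910-19015410, mm10). It was at 1.46, 2.01 and 2.06 scaled TPM in mdx saline, 2.39, 3.76 and 3.95 in mdx PB1046, 1.47, 2.35 and 0.995 in mdx:Utrn+/- saline and 2.31, 3.34 and 1.33 in mdx:Utrn+/- PB1046. The arms were apart in mdx and overlapped in mdx:Utrn+/-, and the pooled difference was 0.47 ± 0.19 (unadjusted p under 0.05 in 19 of 24 alternative settings). The inhibitor Nfkbia differed by 0.33 (-0.32 to 0.97), and the subunits Nfkb1 and Rela by 0.11 (-0.22 to 0.43) and 0.13 (-0.25 to 0.51). Il1r1, the receptor of interleukin 1, was higher by 0.42 on average, and Tlr2, a sensor of bacterial lipoproteins, lower by mean with -0.49. Endothelial markers were also higher by mean under PB1046, and with the endothelial score as a term the median of the component list was 0.0128.

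NF-kB target genes were higher in 30 of 37 tested members, with a median of 0.30. The 1 of them (2.7%) at an unadjusted p under 0.05 was Tnfaip3 again, a share close to the 2.65% of all genes. The median was 0.35 in mdx and -0.02 in mdx:Utrn+/-. Ccl2, the chemokine that draws monocytes, was at 7.08, 17.3 and 18.3 scaled TPM in mdx saline and 72, 63.3 and 42.5 in mdx PB1046, with every PB1046 library above saline. In mdx:Utrn+/- it was at 56.5, 86.8 and 9.39 in saline and 67.3, 28.2 and 11.6 in PB1046 libraries, which overlapped. The responses were 2.05 and -0.35, with an unadjusted interaction p under 0.05. Ccl7, a neighbour of Ccl2 in the same chemokine cluster, had 1.49 and -0.16 (unadjusted interaction p under 0.05), and the acute phase gene Saa3 1.68 and 0.17. Il6 differed by 1.50 and -0.28, and Cxcl9, a chemokine for T cells, by 0.46 and 0.87. Adjusted interaction p-values were 0.9997 or more for these genes. Macrophage markers had the same signs: their median was 0.42 in mdx and -0.45 in mdx:Utrn+/-, with sums of 324, 1023 and 174 scaled TPM in mdx saline and 499.9, 358 and 959 in mdx PB1046. In mdx:Utrn+/- the sums were 1660.1, 305 and 278 in saline and 291, 354 and 669.9 in PB1046 libraries, where saline replicate 1 stood far above the rest, and without it the pooled median of the macrophage list was 0.311 in place of -0.02. Their part in the NF-kB target values was not tested.

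**Figure D3:**
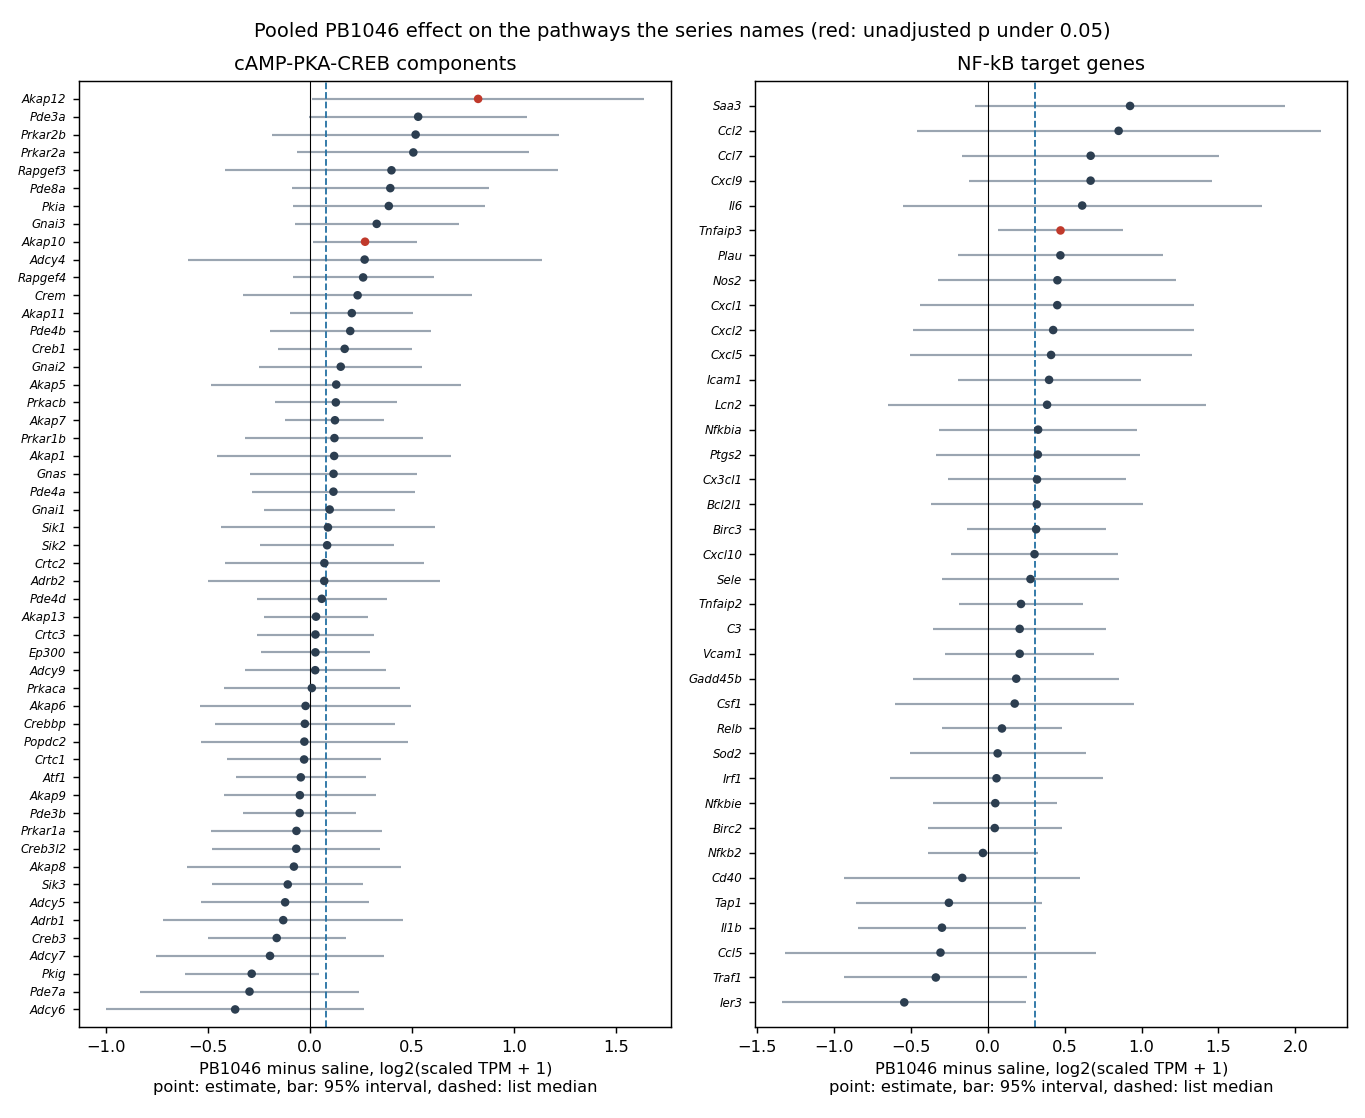
Pooled PB1046 difference of each tested gene of the cAMP-PKA-CREB and NF-kB target lists, with its 95% interval; the dashed lines mark the list medians of 0.08 and 0.30. Red points are Akap12, Akap10 and Tnfaip3, the genes with an unadjusted p under 0.05, and every other interval takes in 0.

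Promoter letters were read for the target lists, 250 bases before to 50 after the RefSeq start (GRCm38.p6), on both strands, for the 9392 tested genes with an entry. The kappaB motif, the site NF-kB binds, was present in 13 of 28 NF-kB target promoters (46.4%) and in 10.4% of all tested genes. The Tnfaip3 window holds 2 matches, at 125 to 116 and 12 to 3 bases before the RefSeq start and inside the longer GENCODE gene. Both are printed along the gene's minus strand, since Tnfaip3 is the NF-kB gene with the smallest unadjusted p, with the matches in capitals. The full CREB site TGACGTCA was in 2 of 22 CREB target promoters (9.09%) and in 3.22% of tested genes, and its core TGACG, which the full site contains, in 14 of 22 (63.6%) and 32%. These matches describe letters and not binding.
Tnfaip3 chr10:19015516-19015545: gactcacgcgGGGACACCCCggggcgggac
Tnfaip3 chr10:19015403-19015432: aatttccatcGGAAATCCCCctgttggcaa

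Genes of the circadian clock had the highest share of low p-values among the lists of at least 10 tested genes. Skeletal muscle markers, with 8 tested genes, had a higher share (50%). The lists were chosen with earlier results of these data known. The clock is a loop in which the activators Arntl (BMAL1) and Clock drive the Per, Cry and Nr1d genes, whose products shut the activators off, and the output factors Dbp, Tef and Hlf. In tissue sampled around the day, Arntl runs opposite in phase to Dbp and the Per genes. Of 23 tested genes 17 were lower and 6 higher under PB1046, with a median of -0.18 (-0.18 in mdx and -0.37 in mdx:Utrn+/-). At an unadjusted p under 0.05 there were 8 (34.8%, against 2.65% of all genes), the activators Arntl and Clock higher and Dbp, Per3, Tef, Cry2, Ciart and Nr1d2 lower. None passed the adjusted test. Leaving out each library in turn gave 6 to 10 such genes, limma-voom 7, and the fit with the endothelial score 7. Relative to all genes the list median was -0.152 without the scaling and -0.173 with it, and it ran from -0.403 without mdx PB1046 replicate 3 to -0.0671 without mdx:Utrn+/- saline replicate 3.

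Dbp, an output transcription factor of the clock (chr7:45705247-45710203, mm10), was at 135, 98.2 and 189 scaled TPM in mdx saline and 40.0, 30.8 and 129 in mdx PB1046. In mdx:Utrn+/- it was at 65.7, 150.3 and 101 in saline and 37.8, 44.5 and 53 in PB1046 libraries. The mdx:Utrn+/- arms were apart, while mdx PB1046 replicate 3 lay among the saline libraries. The difference was -1.22 ± 0.32 (95% interval -1.92 to -0.53), with -1.31 in mdx and -1.14 in mdx:Utrn+/-. Its unadjusted p was under 0.05 in all 25 alternative settings, as were those of Per3 in all 25 and Arntl in the 24 that tested it. All of these settings refit the same libraries.

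Arntl, the activator (chr7:113207465-113314126, mm10), was at 3.04, 1.91 and 0.9 in mdx saline, 3.46, 9.73 and 1.04 in mdx PB1046, 1.18, 0.782 and 1.42 in mdx:Utrn+/- saline and 1.98, 10.2 and 8.41 in mdx:Utrn+/- PB1046. Its 3 highest libraries were PB1046 libraries, and mdx PB1046 replicate 3, high for Dbp, was low for Arntl. The difference was 1.2 ± 0.42. Its partner Clock was at 3.23, 4.67 and 6.85 (lowest, median and highest) in saline and 4.46, 7.34 and 9.89 in PB1046 libraries, a difference of 0.53 ± 0.20.

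Per3, a repressor of the Period family, was at 14.6, 20.8 and 30.3 in mdx saline, 11.4, 5.6 and 16.7 in mdx PB1046, 9.6, 14.6 and 28.7 in mdx:Utrn+/- saline and 9.91, 6.55 and 7.24 in mdx:Utrn+/- PB1046, with a difference of -0.95 ± 0.29. Responses were -0.96 in mdx and -0.95 in mdx:Utrn+/-, though the arms overlapped in both. Tef, an output factor of the same family as Dbp, was at 89.4, 139 and 189 in saline and 60.3, 79.4 and 115 in PB1046 libraries, a difference of -0.72 ± 0.24. Cry2, a cryptochrome repressor, was at 16.9, 14.6 and 16.1 and 13.6, 7.27 and 19.3 in mdx. In mdx:Utrn+/- it was at 18.9, 18.6 and 17.9 in saline and 11.8, 8.74 and 12.2 in PB1046 libraries, which did not overlap. Ciart, a repressor that acts on the activators, differed by -1.06 and Nr1d2, a heme-binding repressor of Arntl, by -0.51. Clock, Ciart and Nr1d2 were named after their values were seen.

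Other clock genes differed less or less evenly. Nr1d1, the closest relative of Nr1d2, differed by 0.03 with -0.64 in mdx and 0.70 in mdx:Utrn+/-, Per1 by -0.18 and Npas2, which can stand in for Clock, by -0.06. Per2 differed by -0.75 (-1.74 to 0.24). The hour of collection is not in the labels, so treatment and hour cannot be told apart for these genes.

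**Figure D4:**
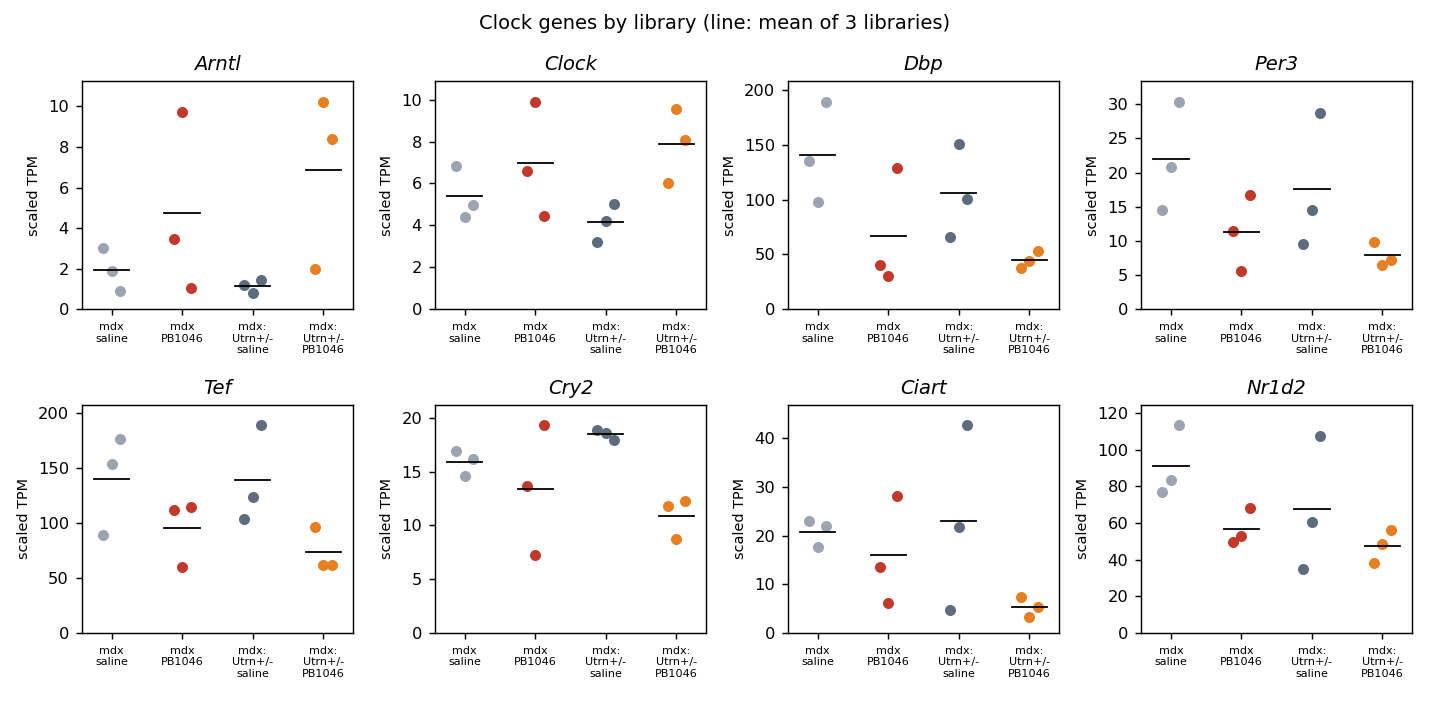
Scaled TPM of the 8 clock genes with an unadjusted p under 0.05, 1 point per library and a line at the mean of 3 libraries. Arntl and Clock are higher by mean and the other 6 lower by mean under PB1046 in both genotypes; mdx PB1046 replicate 3 stands with the saline libraries in Dbp, Per3, Cry2 and Ciart.

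In the same windows and on both strands, a search was made for the E-box CACGTG, which the Arntl and Clock proteins bind, and the D-box TTATGTAA or TTACGTAA, which Dbp and Tef bind. E-boxes were in 5 of 18 clock promoters with an entry (27.8%) and in 10.4% of tested genes. The share was not particular to the clock list: it was 7 of 22 (31.8%) for CREB targets and 3 of 28 (10.7%) for NF-kB targets. D-boxes were in 1 of 18 (5.56%) and in 0.649% of tested genes. The 1 promoter with D-boxes is that of Per3, which holds 2. Ciart holds 3 E-boxes and Tef 1. The runs below are from RefSeq on GRCm38.p6, 5′ to 3′ on the gene's strand (minus for Per3 and Ciart, plus for Tef), and are shown because these are the genes with a match among the 8 above. The Per3 and Ciart runs end where the gene starts in RefSeq or GENCODE, whichever comes first. The Tef run is 30 bases around its E-box, before the RefSeq start and inside the longer GENCODE gene. Capitals mark the D-boxes of Per3 and the E-boxes of Ciart and Tef. Windows of Dbp, Arntl, Clock, Cry2 and Nr1d2 hold neither set of letters.
Per3 chr4:151044666-151044915: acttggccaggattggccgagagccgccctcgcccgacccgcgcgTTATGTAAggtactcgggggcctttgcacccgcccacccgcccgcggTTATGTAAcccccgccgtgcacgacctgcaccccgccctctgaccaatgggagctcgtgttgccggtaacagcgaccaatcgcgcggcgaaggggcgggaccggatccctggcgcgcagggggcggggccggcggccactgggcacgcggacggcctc
Ciart chr3:95882252-95882478: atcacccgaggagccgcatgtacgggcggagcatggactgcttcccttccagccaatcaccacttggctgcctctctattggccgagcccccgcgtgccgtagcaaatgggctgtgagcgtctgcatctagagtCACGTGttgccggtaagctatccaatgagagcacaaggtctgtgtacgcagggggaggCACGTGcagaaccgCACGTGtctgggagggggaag
Tef chr15:81802534-81802563: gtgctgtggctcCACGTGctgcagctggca

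Of genes that respond to glucocorticoids and fasting, 4 of 22 (18.2%, against 2.65% of all genes) had an unadjusted p under 0.05. All 4 were higher under PB1046. Pdk4, the kinase that shuts off pyruvate oxidation in favour of fat, was at 156, 22 and 30.8 scaled TPM in mdx saline, 320.0, 238 and 75.9 in mdx PB1046, 270.1, 78.7 and 35.1 in mdx:Utrn+/- saline and 243, 132 and 207 in mdx:Utrn+/- PB1046. The highest saline library lay within the PB1046 range in mdx and above it in mdx:Utrn+/-, and the difference was 1.47 ± 0.57. Cdkn1a, which encodes the cell cycle inhibitor p21, was at 8.4, 17.8 and 31 (lowest, median and highest) in saline and 13.9, 32.2 and 93.5 in PB1046 libraries, a difference of 0.98 ± 0.41. Sgk1, a kinase that regulates ion transport, differed by 0.72 and Errfi1, an inhibitor of the epidermal growth factor receptor, by 0.51. The list as a whole had 12 of 22 members higher with a median of 0.09, with 0.61 in mdx and -0.31 in mdx:Utrn+/-. Without mdx PB1046 replicate 2 the number at an unadjusted p under 0.05 was 0 and the median -0.0411.

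Of 46 fat-burning genes and targets of PPAR, the lipid-sensing receptor, 2 (4.35%, against 2.65% of all genes) had an unadjusted p under 0.05. These were Pdk4 and Acot1, a cytosolic thioesterase that differed by 0.74 ± 0.32. The list median was 0.05, with 27 of 46 members higher. With the endothelial score as a term it was 0.157, with 39 members higher. In that fit 8 members had an unadjusted p under 0.05, as did 518 of all 12798 genes. Txnip, a glucose-induced brake on glucose uptake, was lower by mean at 198, 269 and 383 in saline and 146, 204 and 249 in PB1046 libraries, a difference of -0.45 ± 0.18. Of the glycolysis list 26 of 33 members were lower with a median of -0.21, which was -0.107 with the endothelial score as a term and ran from -0.254 without mdx PB1046 replicate 1 to -0.0718 without mdx:Utrn+/- PB1046 replicate 2. Aldoa was among them with -0.33 (-0.67 to 0.01).

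Oxidative phosphorylation genes, which encode the respiratory chain, were lower in 50 of 53 members, with a median of -0.27, and 0 of them had an unadjusted p under 0.05 by limma or by limma-voom. The median was -0.44 in mdx and -0.08 in mdx:Utrn+/-. Uqcrq, a subunit of complex III, was at 3214, 4549 and 5799 scaled TPM in saline and 2483, 3706 and 5196 in PB1046 libraries (lowest, median and highest), a difference of -0.36 (-0.72 to 0.0015). Summed over the list, mdx PB1046 libraries held 139962, 86778 and 79173 scaled TPM against 138903, 130265 and 145377 in mdx saline. In mdx:Utrn+/- the sums were 176207, 108617 and 158059 under PB1046 and 158496, 138798 and 168548 under saline. Replicates 2 and 3 of mdx PB1046 and replicate 2 of mdx:Utrn+/- PB1046 were thus low, and the other 3 were within or above the saline range of their genotype. Of these 3, mdx PB1046 replicate 3 and mdx:Utrn+/- PB1046 replicate 2 also had the highest endothelial sums of all libraries. The list median was -0.172 with the endothelial score as a term and, relative to all genes, -0.242 without scaling.

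The sarcomere list had its lowest sums in the same low libraries, with 24 of 28 members lower in the pooled comparison and a median of -0.17. That median was -0.0599 with the endothelial score as a term and, relative to all genes, -0.141 without scaling. Tcap, a Z-disc protein, differed by -0.71 (-1.48 to 0.06) and Tnnc1, cardiac troponin C, by -0.35 (-0.72 to 0.03). Myh7, the slow myosin heavy chain that returns in stressed mouse ventricle, was at 238, 97.4 and 77 in mdx saline, 117, 75 and 73 in mdx PB1046, 217, 152 and 223 in mdx:Utrn+/- saline and 174, 90.0 and 106 in mdx:Utrn+/- PB1046. Its arms overlapped in both genotypes, and the difference was -0.60 ± 0.27 (unadjusted p under 0.05 in 12 of 25 alternative settings). Atrial markers had their highest sums in replicate 1 of each saline group, with 6934, 1689.6 and 924 in mdx saline and 8510.1, 3007 and 3389.9 in mdx:Utrn+/- saline against 2981, 1144 and 1940.3 and 3868, 1206 and 4018 under PB1046, and their part in the value of Myh7 was not tested. Cytosolic ribosomal protein genes were lower in 46 of 48 members with a median of -0.14. Without scaling the median was 0.0262, which is -0.116 relative to the median of all genes, against -0.141 with scaling.

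Rrad, a small GTPase that restrains the L-type calcium channel and is released from it by PKA, was lower by mean: 427, 239 and 259 scaled TPM in mdx saline, 135, 119 and 106 in mdx PB1046, 338, 319 and 181 in mdx:Utrn+/- saline and 231, 158 and 344 in mdx:Utrn+/- PB1046. The mdx arms were apart and those of mdx:Utrn+/- overlapped, with responses of -1.31 and -0.21 (unadjusted interaction p under 0.05) and a pooled difference of -0.76 ± 0.27. The calcium handling list had a median of -0.0047, and Rrad was its single member of 31 (3.23%) at an unadjusted p under 0.05. Of 34 ion channel and junction genes 2 (5.88%) were at that level, against 2.65% of all genes. Kcna5, a voltage-gated potassium channel subunit, was at 3.22, 6.95 and 13.2 in saline and 5.38, 14.3 and 28.3 in PB1046 libraries, a difference of 1.00 ± 0.38. Kcnh2, the channel of the rapid delayed rectifier current, was at 27.3, 31.4 and 34.4 and 20.6, 27.2 and 29.5, a difference of -0.28 ± 0.12. Kcna5 and Rrad thus had wide ranges within an arm, while Kcnh2 was more even across libraries and its difference small. The unadjusted p was under 0.05 in 16 of 25 alternative settings for Kcnh2, 21 for Kcna5 and 25 for Rrad. Without scaling the difference of Kcnh2 was -0.11.

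Genes of the dystrophin-glycoprotein complex, which anchors the cardiomyocyte membrane, were lower in 13 of 20 members with a median of -0.10 (relative to all genes -0.092 without scaling and -0.101 with it), and 0 had an unadjusted p under 0.05 in limma or limma-voom. Utrn (chr10:12382188-12861735, mm10) was at 6.44, 13.7 and 13.8 scaled TPM in mdx PB1046 and 5.21, 8.4 and 6.78 in mdx:Utrn+/- PB1046, against 9.17, 8.71 and 11.1 and 3.89, 7.16 and 5.92 in the saline groups of the same genotypes. PB1046 and saline libraries overlapped in both genotypes, and the difference was 0.19 (95% interval -0.23 to 0.62). Dmd, whose mutation defines mdx, differed by -0.13 (-0.58 to 0.32), and its level does not check the mutation, which is a change in sequence. Sgca, a sarcoglycan, differed by -0.35 (-0.74 to 0.05), and Cav3, the caveolin of muscle, by -0.35 (-0.75 to 0.05). Of 24 membrane repair and costamere genes 16 of 24 were higher with a median of 0.10, and Dysf, which reseals torn membrane, differed by 0.26 (-0.11 to 0.63). No member of either list had an interval without 0.

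In the extracellular matrix list 40 of 49 members were higher in the pooled comparison with a median of 0.18, but 39 of 49 had opposite signs in the genotypes. The pooled median was 0.0161 with log2 Rn45s (a ribosomal RNA transcript) as a term, 0.0417 without mdx saline replicate 1 and 0.311 without mdx saline replicate 2. By genotype it was 0.48 in mdx and -0.26 in mdx:Utrn+/-, and no member passed the adjusted interaction test. Of 49 members 1 (2.04%, against 2.65% of all genes) had an unadjusted p under 0.05. This was Cyr61, a matricellular protein and early response gene. It was at 139, 178 and 220.0 in saline and 94, 127 and 219 in PB1046 libraries, a difference of -0.44 ± 0.17. Cthrc1, the member with the largest drop, differed by -0.92 (-1.90 to 0.06), with -0.78 in mdx and -1.06 in mdx:Utrn+/-. Nid1, which links laminin to collagen IV, differed by 0.44 (-0.06 to 0.94) and Col4a2, a collagen IV chain, by 0.35 (-0.06 to 0.77). Mmp3, a matrix-cleaving protease, had 1.56 in mdx and -0.22 in mdx:Utrn+/- (unadjusted interaction p under 0.05). Fibroblast markers had the same signs by median, 0.49 and -0.26. Of 21 markers 17 had opposite signs in the genotypes, 2 were higher in both and 2 lower in both. The 2 lower in both were Postn (pooled -0.58) and Mfap4 (-0.52). Fibroblast sums were 732, 1788 and 661 in mdx saline and 1066, 934 and 2082 in mdx PB1046. They were 1314, 1091 and 634 in mdx:Utrn+/- saline and 935, 766 and 729 in mdx:Utrn+/- PB1046. The pooled fibroblast median ran from -0.0386 without mdx PB1046 replicate 3 to 0.366 without mdx:Utrn+/- saline replicate 1. Their part in the matrix values was not tested.

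**Figure D5:**
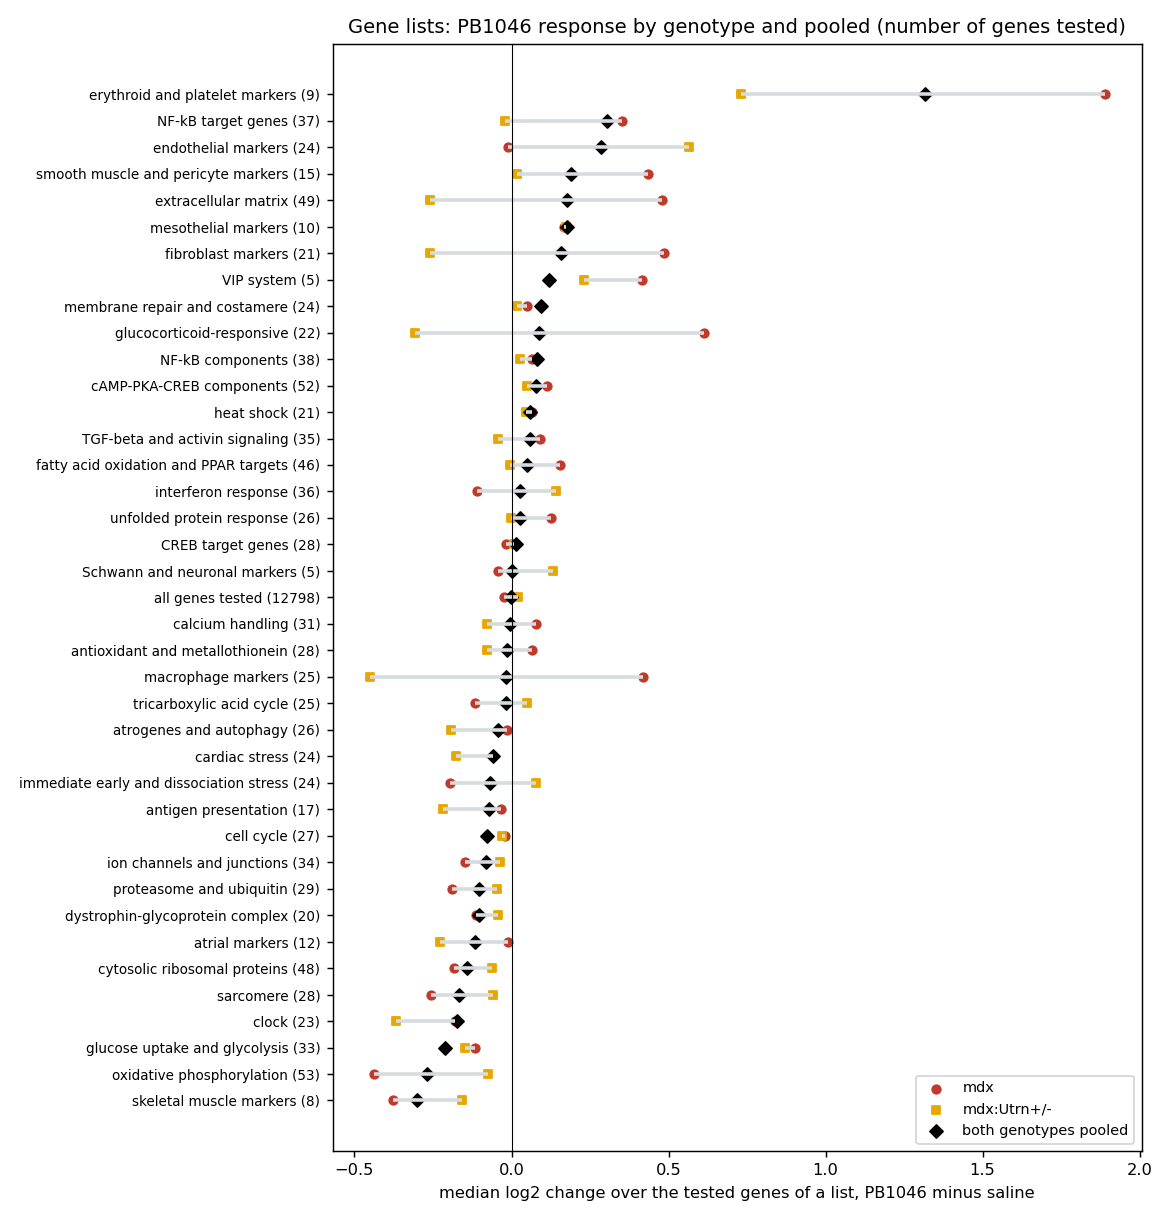
Median PB1046 difference over the tested genes of each list with at least 5 of them, in mdx (circles), in mdx:Utrn+/- (squares) and pooled (diamonds), on the log2(scaled TPM + 1) scale. Matrix, fibroblast, macrophage and glucocorticoid lists sit on opposite sides of 0 in the genotypes. The clock and oxidative phosphorylation lists sit below 0 in both, as do several others, among them the sarcomere, glycolysis and ribosomal protein lists.

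Marker lists of other cells in the preparations also differed between arms by median, though no member passed the adjusted test. Sums of the lists below overlapped between arms in both genotypes. Endothelial markers were higher in 22 of 24 genes with a median of 0.28, with -0.01 in mdx and 0.57 in mdx:Utrn+/-, and none of the 24 was listed at 0 in every library. Their sums were 826, 1553 and 1903 scaled TPM in mdx saline, 590.4, 1747 and 2815 in mdx PB1046, 759, 664 and 1152 in mdx:Utrn+/- saline and 878, 2127 and 1058 in mdx:Utrn+/- PB1046. Cldn5, a tight junction protein of vessels, was the 1 member (4.17%, against 2.65% of all genes) at an unadjusted p under 0.05. It was at 9.84, 21.6 and 32.6 in saline and 19.4, 43.6 and 111 in PB1046 libraries, a difference of 1.06 ± 0.38. The list median ran from 0.0944 without mdx:Utrn+/- PB1046 replicate 2 to 0.565 without mdx PB1046 replicate 1.

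Of 15 markers of smooth muscle and pericytes, contractile cells on vessels, 3 (20%, against 2.65% of all genes) had an unadjusted p under 0.05. With the endothelial score as a term 1 did, and none of these 3 did on leaving out replicate 1 of mdx saline, replicate 3 of mdx PB1046 or replicate 3 of mdx:Utrn+/- saline. These were Rgs5 (0.89 ± 0.38), a regulator of G protein signaling, Kcnj8 (0.53 ± 0.22), a subunit of the ATP-sensitive potassium channel, and Vtn (0.64 ± 0.29), which encodes vitronectin. Rgs5 was at 13.3 to 51.6 scaled TPM in saline and 36.5 to 108 in PB1046 libraries, and its arms overlapped. Red cell and platelet markers were higher in 9 of 9 genes with a median of 1.32, the largest of the 41 lists, with none at an unadjusted p under 0.05 in limma or limma-voom. Their sums were 174, 104 and 941 in mdx PB1046 and 177, 933 and 99.8 in mdx:Utrn+/- PB1046, so that 1 library in each group stood far above the others. In saline the sums were 72, 131 and 29.2 in mdx and 397, 149 and 52.3 in mdx:Utrn+/-. Hba-a1, an alpha globin gene with a near-identical copy in Hba-a2, differed by 1.42 ± 0.73.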

How the data were processed

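RNA from isolated cardiomyocytes was sequenced in 12 libraries, 3 per group, from a stranded mRNA kit. The deposited table gives TPM made by the authors: each library sums to the same total, although the table is named raw counts. Reads were mapped to mm10 and edgeR was used, per the submitters' processing notes. No source used here names the aligner or the read counter.

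A trimmed-mean factor per library (30% of ratios and 5% of levels trimmed; 0.842 to 1.32) divided the TPM, which were taken as log2(value + 1). Genes with at least 1 TPM in 3 libraries were fitted with limma 3.58.1 in R 4.3.3 (trend and robust moderation, treatment plus genotype, 9 residual degrees of freedom), with Benjamini-Hochberg adjustment over 12798 genes. Whole reads recovered from the TPM steps, with 100% of values within 0.1 read of a whole number, entered limma-voom as an alternative. Intervals cover 95%. Named genes are the VIP system, the 12 genes of lowest unadjusted p in each direction (predicted genes, RIKEN clones, small RNAs and pseudogenes left out), up to 5 per list, members of the cAMP and NF-kB lists, and the 8 per direction with groups that did not overlap and the largest difference. The members and the 41 lists were chosen with earlier results of these data known. Some genes that the rule names are not reported here.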

Additional observations from a re-analysis of the deposited data

How the results depend on the processing

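No gene passed the adjusted threshold for the pooled PB1046 effect in any of the 25 alternative settings, and 0 or 1 passed for the interaction between PB1046 and genotype when libraries were left out in turn (1 without mdx:Utrn+/- saline replicate 3). The number at an unadjusted p under 0.05, 339 as reported, was 529 with no filter on low values, where more genes were tested, and 219 with at least 5 TPM in 6 libraries, where fewer were. It was 661 without scaling between libraries and 518 with the endothelial score as a term. It ran from 154 to 1006 when single libraries were left out, and the cause was not tested. With the replicate number as a replicate block it was 537. Same-numbered libraries correlated in their deviations at 0.491, -0.043 and 0.0708 in mdx and 0.0854, 0.0219 and 0.0845 in mdx:Utrn+/-. The labels do not say that a number marks a shared litter or day, so the libraries were not treated as paired. These few correlations cannot show whether they share one. Not every library correlated best with its own number. The other settings (pseudocounts of 0.1 and 5, median-of-ratios scaling, limma without trend and robust moderation, 4 group means, no genotype term, log2 Rn45s as a term, limma-voom) gave 318 to 409. The VIP receptor genes had at most 38 reads in a library, and the part of depth in their values was not tested.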

Other observations

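Skeletal muscle markers held 4 of 8 tested genes (50%, against 2.65% of all genes) at an unadjusted p under 0.05. The count was 2 with limma-voom and 1 without mdx saline replicate 2, where Tnnt3 fell under the filter. Beside Tnnt3, which encodes fast troponin T, the troponin genes Tnnt1 and Tnni2 were lower by mean, at 54.4, 65.3 and 76.7 and 4.89, 7.13 and 11.9 scaled TPM (lowest, median and highest) in saline and 42.7, 47.4 and 70.4 and 3.97, 4.48 and 7.38 in PB1046 libraries. Their differences were -0.36 ± 0.14 and -0.53 ± 0.21. Mylpf, the fast regulatory myosin light chain, was higher by mean, at 0.753, 1.47 and 3.14 in saline and 2, 2.48 and 2.64 in PB1046 libraries (0.48 ± 0.17), so the members did not share a direction. Map1lc3a, a membrane marker of autophagosomes, was the 1 of 26 atrogene and autophagy genes (3.85%) at that level, at 1071, 1374 and 2031 in saline and 844, 1062 and 1547 in PB1046 libraries, a difference of -0.38 ± 0.17. The ubiquitin ligase Fbxo32 differed by -0.39 (-0.78 to 0.01).

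Interferon response genes were higher in 19 of 36 members with a median of 0.03, which was -0.118 with the endothelial score as a term. Isg15, a ubiquitin-like protein and the member with the smallest unadjusted p, differed by 0.38 (-0.08 to 0.85). Antigen presentation genes were lower in 13 of 17 members with a median of -0.07 (relative to all genes -0.0493 without scaling and -0.0715 with it), among them H2-K1 with -0.18 (-0.79 to 0.43), whose reads may be shared with related class I genes. The unfolded protein response had 16 of 26 members higher and a median of 0.03, with Ddit3, which encodes CHOP, at -0.51 (-1.07 to 0.04). Heat shock genes had 15 of 21 higher and a median of 0.06, with Hsp90ab1 at 0.20 (-0.11 to 0.51). TGF-beta and activin signaling had 22 of 35 higher and a median of 0.06, and Tgfb1 itself differed by 0.25 (-0.14 to 0.65). None of these 5 lists held a gene at an unadjusted p under 0.05 in limma with treatment and genotype alone. With the endothelial score as a term, 3 antigen presentation, 2 interferon, 2 unfolded protein response and 1 TGF-beta gene did. In that fit 518 of all 12798 genes did, and the antigen presentation median was -0.235.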
